A study of Homo sapiens with 18 samples.

Results

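The 36 genes described here encode the regulators and enzymes that make, desaturate, elongate and activate fatty acids, the enzymes that build triglyceride from them, and the coat proteins and lipases of lipid droplets. They were taken by symbol from a table of raw read counts per gene, and all 36 of the 36 listed symbols were among its 28278 genes. The cells belonged to LX-2, an established line of human hepatic stellate cells. Subcultures grown for 48 h were kept for 1 h in medium without serum. The thrombin groups then received thrombin, the clotting protease, at 1 U/mL for 4, 24 or 48 h, and the control groups received serum-free medium alone for the same times. Each of the 6 groups had 3 libraries of poly(A)-enriched RNA, numbered 12, 13 and 14 in the labels, which do not say what the numbers mark. P-values therefore rest on how far the 3 libraries of a group differ, and this difference may be technical.

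Cells make fatty acids from cytosolic acetyl-CoA, which acetyl-CoA carboxylase and fatty acid synthase turn into palmitate. Desaturases and elongases then modify the chain, and acyltransferases, phosphatidate phosphatases and diacylglycerol acyltransferases join it to glycerol to give triglyceride, which is stored in droplets coated by perilipins. The transcription factor SREBP-1, product of SREBF1, is known to activate most of the synthesis genes when sterols are low or insulin and LXR signals are high. Hepatic stellate cells in healthy liver hold retinyl ester in such droplets and lose them as they turn into matrix-producing cells. LX-2 is an immortalised line with features of the activated state.

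Library totals ranged from 14431044 to 23270601 counts. Stellate markers ranged widely in level. VIM averaged 3593 CPM (counts relative to the scaled library size) and COL1A1 averaged 2274 CPM, while LRAT, which encodes the enzyme that makes retinyl ester, had at most 6 counts in any library. Of 11 hepatocyte markers APOC3 and TTR had 0 counts in every library and ALB had at most 2 counts. SERPINA1 was the highest of them, with 59 to 122 counts per library and a mean of 4.96 CPM. The summed level of the hepatocyte list lay between 4.43 and 7.48 CPM over all 18 libraries. That of 7 adipocyte markers, with ADIPOQ at 1 count or fewer, lay between 1.75 and 4.20 CPM. CFD was the highest of the 7, with 18 to 67 counts per library and a mean of 2.06 CPM. Libraries labelled thrombin 4 h were close to those labelled control 24 h: 11 of 15353 genes, 0.0716%, were called between them, and 0 of the 36 genes. Libraries labelled thrombin 48 h were also close to control 24 h, with 55 genes, 0.358%, and 0 of the 36 called between them. Every direction below rests on the labels.

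All 36 genes passed the filter on low counts (15353 of the 28278 genes did), and 33 of them had more than 100 counts in every library. The 3 shallower ones were MLXIPL, with 9 to 45 counts per library, PLIN2 and ACSL5. Per kilobase of exon, the desaturase gene SCD had the highest mean over the 18 libraries at 329 CPM per kb, followed by FADS2 at 299, ACLY at 242, FASN at 189 and ELOVL1 at 111 CPM per kb. Among the droplet coat genes the general coat gene PLIN3 had 82.0 CPM per kb, far above the 2.49 CPM per kb of PLIN2, the coat protein usual in lipid-loaded liver cells. MLXIPL, which encodes the carbohydrate-responsive factor ChREBP, was lowest at 0.364 CPM per kb.

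**Figure D1:**
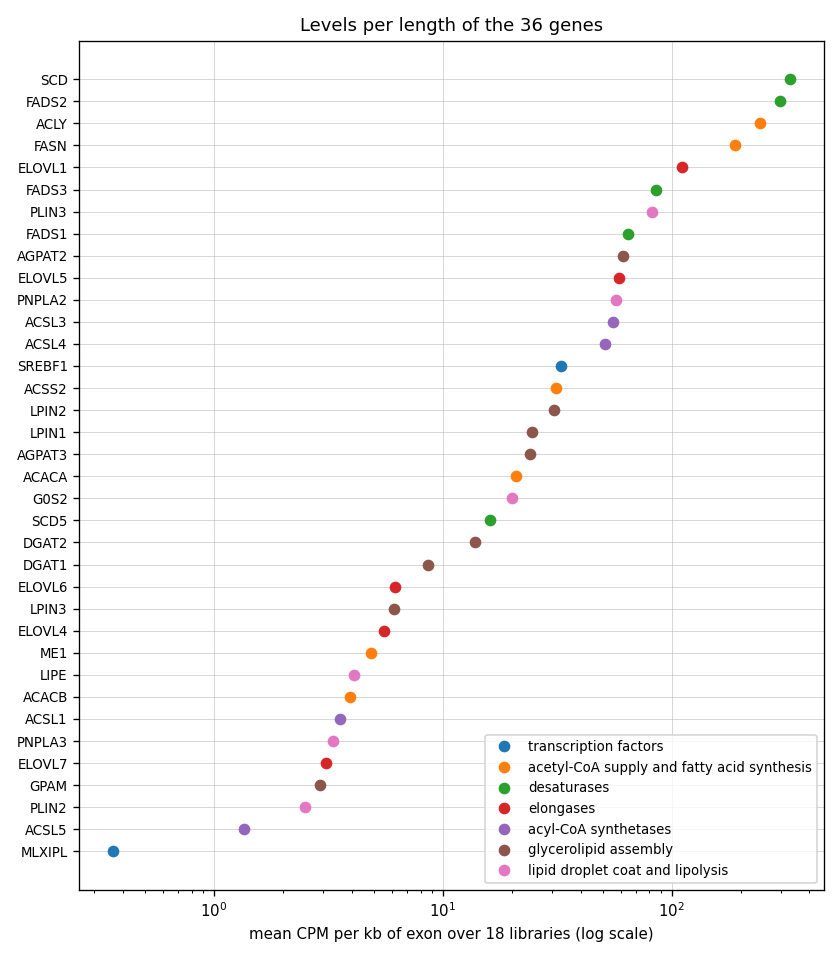
Mean level of each of the 36 genes over the 18 libraries, in CPM per kilobase of exon on a log scale, coloured by role. SCD stands at the top with 329 CPM per kb and MLXIPL at the bottom with 0.364 CPM per kb.

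The levels moved within a narrow band. The ratio of the highest to the lowest group mean ran from 1.12 for PLIN3 to 2.39 for MLXIPL, and for ACSS2 it was 2.16. Thrombin 24 h had the lowest of the 6 group means for 16 of the 36 genes, and thrombin 4 h had the highest for 11 and control 24 h for 9. The matching counts over all tested genes were not made, so these counts are not shown to be particular to the 36. Together the 36 genes took 0.732% ± 0.028 of the counts in thrombin 24 h libraries against 1.00% ± 0.018 in control 24 h libraries (mean ± SD, n = 3 each). In the other 4 groups their mean share lay between 0.953% and 1.02%, and the highest thrombin 24 h library, at 0.760%, lay below every other library, the lowest of which had 0.879%. The sum leans on a few genes with many counts. Over the 18 libraries SCD averaged 0.177% of the counts, FASN 0.162%, FADS2 0.149% and ACLY 0.106%. These shares are without TMM scaling, whose factors (0.945 to 0.962 in thrombin 24 h, 1.022 to 1.030 in control 24 h libraries) would narrow the gap.

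**Figure D2:**
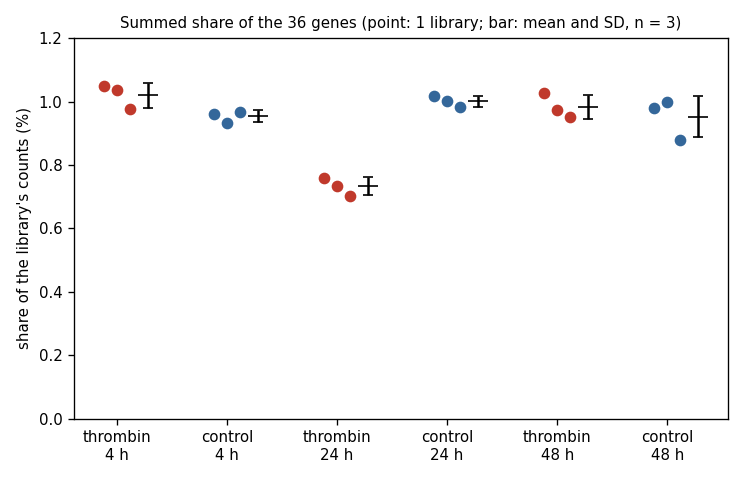
Share of each library's counts taken by the 36 genes together, in percent, for thrombin and control at 4, 24 and 48 h. Points are libraries and bars are mean and SD over 3 libraries. The 3 thrombin 24 h libraries sit between 0.703% and 0.760%, below all others.

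Because several of these genes moved together, their promoters were read for 3 motifs in the RefSeq windows that run from 250 bases before to 50 bases after the annotated start (GRCh38.p14). At least 1 window was found for 31 of the 36 genes, and the other 5 are FASN, LPIN3, DGAT1, DGAT2 and PNPLA3. More than 1 window was found for 11 genes, and a gene was counted for a motif if any of its windows held it. The windows were searched on both strands for TCACNCCAC, a form of the sterol regulatory element that SREBPs bind, for CCAAT, the box bound by NF-Y, a factor that works beside SREBPs at many of their targets, and for CACGTG, an E-box that ChREBP and SREBP-1 can bind. TCACNCCAC was in the windows of 2 of the 31 genes (6.45%), ACSL1 and PNPLA2, and of 1.39% of all 27305 genes with a window. For ACSL1 only 1 of its several windows held it. CCAAT was in those of 17 of the 31 (54.8%) and of 39.7% of all genes. CACGTG was in those of 4 of the 31 (12.9%), ELOVL4, ELOVL5, LPIN2 and PLIN2, and of 8.77% of all genes. No match of 1 motif overlapped a match of another in these windows. Among the genes lower with thrombin at 24 h, ACSS2, SCD, SCD5, FADS2 and ACSL3 had CCAAT in a window. SREBF1, MLXIPL, FADS1, ELOVL6, LPIN1 and PLIN2 were also lower and had windows without CCAAT. The motif was also in a window of GPAM, which was higher at 24 h. It was in windows of ACLY, ACACA, ACACB, FADS3, ELOVL1, ELOVL4, ELOVL5, ACSL1, AGPAT3, PLIN3 and LIPE, not called at 24 h. A link between CCAAT and the direction was not tested. The 250 bases before the start are shown for 3 genes with CCAAT that were lower with thrombin at 24 h, SCD (chr10:100346983-100347232, plus strand), ACSS2 (chr20:34874739-34874988, plus strand) and SCD5 (chr4:82798797-82799046, minus strand), for PLIN2 (chr9:19127493-19127742, minus strand), which carries the E-box, and for PNPLA2 (chr11:818664-818913, plus strand), which carries the sterol regulatory element and was not called with thrombin at any time. Each is read in the direction of the gene, with the motif or its reverse complement in capitals:
SCD: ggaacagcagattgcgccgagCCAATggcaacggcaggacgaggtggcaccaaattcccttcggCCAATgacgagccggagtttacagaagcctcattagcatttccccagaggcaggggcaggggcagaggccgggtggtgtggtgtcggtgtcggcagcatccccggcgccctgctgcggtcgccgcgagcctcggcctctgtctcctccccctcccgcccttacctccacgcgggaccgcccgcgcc
ACSS2: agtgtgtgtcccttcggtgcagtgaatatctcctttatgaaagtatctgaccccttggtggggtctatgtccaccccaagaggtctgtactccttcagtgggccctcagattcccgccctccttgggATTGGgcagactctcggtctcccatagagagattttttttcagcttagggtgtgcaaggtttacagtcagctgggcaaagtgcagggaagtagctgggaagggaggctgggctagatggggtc
SCD5: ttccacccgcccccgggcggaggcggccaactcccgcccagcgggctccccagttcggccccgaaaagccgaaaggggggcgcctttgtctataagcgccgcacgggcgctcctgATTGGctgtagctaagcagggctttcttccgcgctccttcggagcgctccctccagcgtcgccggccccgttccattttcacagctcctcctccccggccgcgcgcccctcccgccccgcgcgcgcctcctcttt
PLIN2: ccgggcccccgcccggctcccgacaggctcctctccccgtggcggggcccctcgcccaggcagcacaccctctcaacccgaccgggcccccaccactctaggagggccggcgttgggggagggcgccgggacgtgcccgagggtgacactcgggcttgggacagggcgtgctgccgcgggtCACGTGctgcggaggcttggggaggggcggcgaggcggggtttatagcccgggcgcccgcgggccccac
PNPLA2: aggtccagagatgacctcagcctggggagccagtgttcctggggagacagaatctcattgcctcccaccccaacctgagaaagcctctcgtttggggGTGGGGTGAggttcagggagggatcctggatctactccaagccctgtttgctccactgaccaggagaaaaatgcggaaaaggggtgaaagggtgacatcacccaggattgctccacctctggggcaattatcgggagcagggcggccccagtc
A match of letters is a description of these windows and not a measured site.

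At 24 h, 14 of the 36 genes fell and 2 rose in thrombin libraries relative to control libraries. Called here means an adjusted p under 0.05 in edgeR's quasi-likelihood test, with Benjamini-Hochberg adjustment over all 15353 genes. Over all tested genes 8.54% were lower and 9.05% were higher. The share lower among the 36 was thus well above the background and the share higher was below it. The 36 genes were chosen with earlier results of these data known, so this excess is a description and not an independent finding. In the role groups of 4 to 8 genes described next, a single called gene is near these shares. The median log2 fold change of the 36 was -0.23, against 0.00 over all tested genes. At 4 h the picture was different, with 6 genes higher and 3 lower, where 6.29% of all genes were higher and 5.52% were lower, so that the lower share was near the background, and a median of 0.08 against -0.00. At 48 h edgeR called 0 of the 36 genes and 0% of all genes in either direction. At an unadjusted p under 0.05 it had 1 of the 36 and 1110 of all genes, and DESeq2 called 0 of the 36 and 20 of all genes.

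Without any test, the 3 thrombin 24 h libraries lay below the 3 control 24 h libraries for 20 of the 36 genes and above them for 5, where 17% of all tested genes lay below and 17.1% above. For 7 genes, ACSS2, FASN, SCD, FADS2, ELOVL6, LPIN1 and DGAT2, the thrombin 24 h libraries lay below each of the other 15 libraries of the study, as 1.32% of all tested genes did. None of the 36 lay above all 15, as 2.38% of all genes did.

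**Figure D3:**
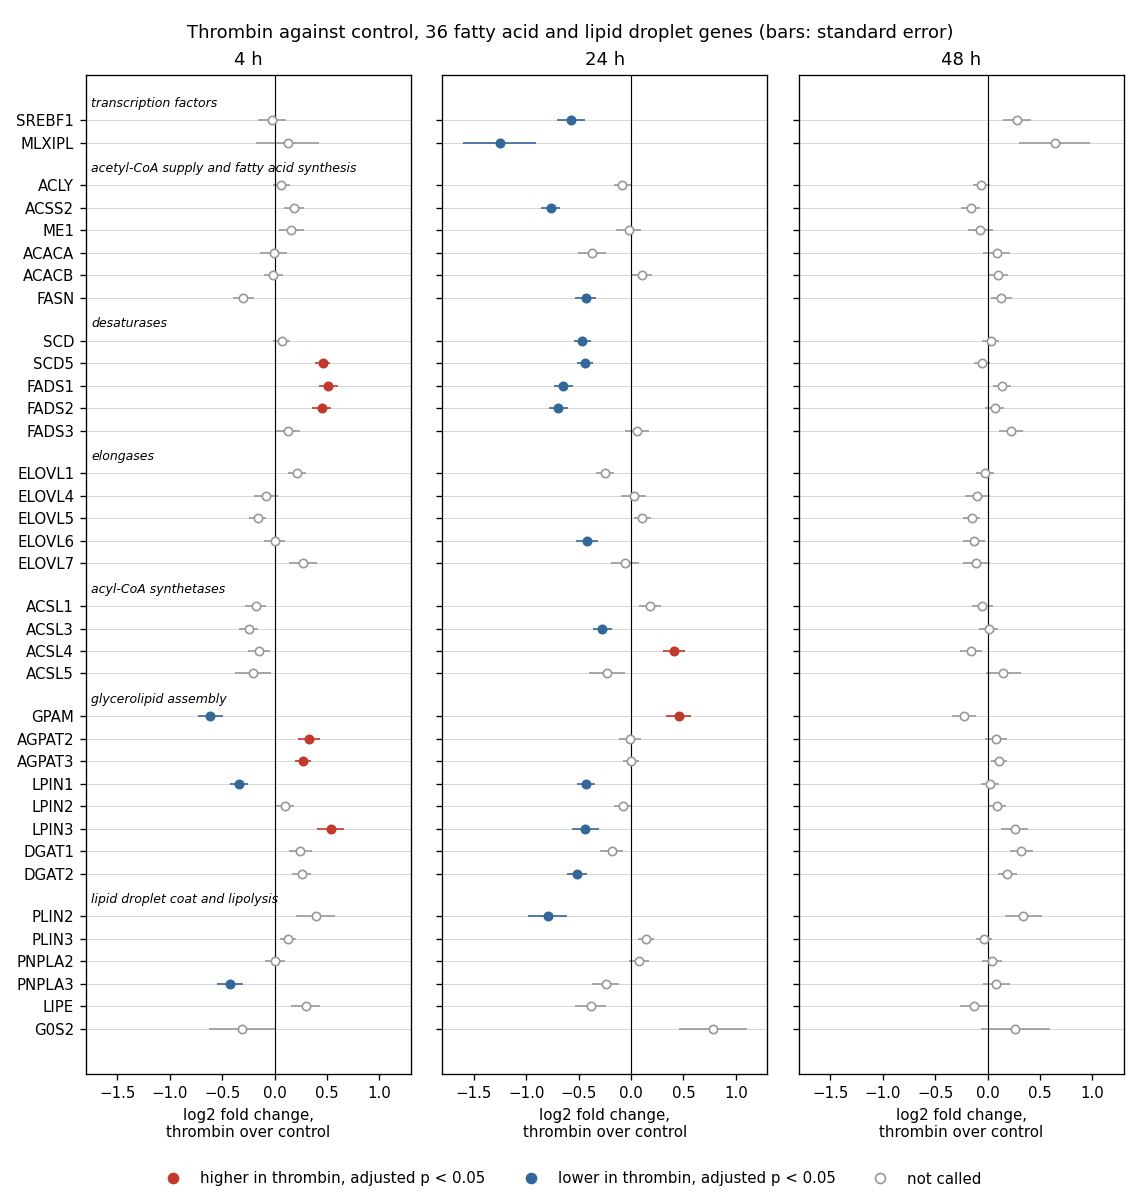
Log2 fold change of thrombin over control for the 36 genes at 4, 24 and 48 h, grouped by role, with the standard error of each as a bar. Filled points were called at an adjusted p under 0.05: 6 higher and 3 lower at 4 h, 2 higher and 14 lower at 24 h, and 0 at 48 h.

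Both transcription factor genes fell at 24 h. SREBF1 had 111, 131 and 118 CPM in thrombin 24 h libraries numbered 12, 13 and 14, against 207, 182 and 146 CPM in control 24 h libraries in the same order. The groups did not overlap, and the log2 fold change with its standard error (SE) was -0.57 ± 0.14 (edgeR adjusted p = 0.00498). At 4 h the SREBF1 libraries overlapped, with 146, 172 and 142 CPM with thrombin and 188, 141 and 139 CPM in control (log2 fold change -0.02 ± 0.14). At 48 h they had 187, 144 and 129 CPM with thrombin and 122, 130.0 and 127 CPM in control; 2 of the 3 thrombin libraries lay above every control library and the fold change of 0.28 ± 0.14 was not called. MLXIPL had 0.605, 1.02 and 0.621 CPM in thrombin 24 h libraries and 1.87, 2.05 and 1.44 CPM in control 24 h libraries, also without overlap. Its log2 fold change was -1.25 ± 0.35 (edgeR adjusted p = 0.0130), from few counts. The MLXIPL call was lost without control 24 h library 13 (-1.14, edgeR adjusted p = 0.0585), without thrombin 24 h library 12 (adjusted p = 0.0516) and without thrombin 24 h library 14 (adjusted p = 0.0678).

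Of the 6 genes for acetyl-CoA supply and fatty acid synthesis 2 fell at 24 h, and 0 were called at 4 h. ACSS2, whose enzyme makes acetyl-CoA from acetate, had 58.5, 59.2 and 56.6 CPM in thrombin 24 h libraries, against 88.7, 101 and 107 CPM in control 24 h libraries. All 3 thrombin values lay far below all control values, and its fold change of -0.77 ± 0.09 had the smallest adjusted p of the 36 genes (edgeR adjusted p = 1.70e-06). FASN, which encodes the synthase that builds palmitate, had 1117, 1105 and 1258 CPM in thrombin 24 h libraries and 1603, 1608 and 1482 CPM in control 24 h libraries, again without overlap. Its fold change was -0.43 ± 0.10 (edgeR adjusted p = 0.00312). At 4 h FASN was at 1673 ± 233 CPM with thrombin and 2055 ± 148 CPM in control (mean ± SD, n = 3 each), a fold change of -0.30 ± 0.10 that missed the threshold (edgeR adjusted p = 0.0516). It passed at 4 h in 10 of 24 alternative analyses, among them those without thrombin 4 h library 12 (adjusted p = 0.0336) and without thrombin 4 h library 13 (adjusted p = 0.0456).

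The other 4 genes of this step were not called at any time. ACACA, for the cytosolic acetyl-CoA carboxylase that supplies malonyl-CoA, stood just outside the threshold at 24 h, with 208, 173 and 178 CPM with thrombin and 260.2, 243 and 223 CPM in control. The groups did not overlap, and the fold change was -0.37 ± 0.13 (edgeR adjusted p = 0.0506). It was called in 12 of 24 alternative analyses, among them the fit of the 24 h libraries alone (adjusted p = 0.00655) and the fit without thrombin 24 h library 12 (adjusted p = 0.0351). ACACB, for the carboxylase at the mitochondrial surface that restrains fatty acid import, had a fold change of 0.10 ± 0.10 at 24 h. ACLY, which makes acetyl-CoA from citrate, had -0.08 ± 0.08, and ME1, a malic enzyme that supplies NADPH, had -0.02 ± 0.12.

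Of the 5 desaturases 4 fell with thrombin at 24 h, and 3 rose at 4 h. SCD, for the main stearoyl-CoA desaturase that makes oleate, had 1464, 1365 and 1268 CPM in thrombin 24 h libraries and 1936, 1891 and 1836 CPM in control 24 h libraries (log2 fold change -0.47 ± 0.08, edgeR adjusted p = 1.84e-04). At 4 h its levels overlapped, with 2020.0, 1892 and 1826 CPM with thrombin and 1772, 1816 and 1887 CPM in control, and at 48 h its fold change was 0.03 ± 0.08. SCD5, a second stearoyl-CoA desaturase, had 59.1, 60.8 and 58.1 CPM with thrombin at 24 h and 75.1, 87.2 and 78.6 CPM in control, a fold change of -0.44 ± 0.08 (edgeR adjusted p = 1.53e-04). At 4 h the order was the opposite, with 75.0, 75.4 and 79.5 CPM with thrombin against 55.6, 56.6 and 55.1 CPM in control, and a fold change of 0.46 ± 0.07 (edgeR adjusted p = 2.33e-04). Neither SCD5 pair overlapped, and the promoter of SCD5 is among those printed above.

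FADS1 and FADS2 encode the desaturases of polyunsaturated fatty acids and lie beside each other on chromosome 11. FADS1 had 410.4, 389 and 334 CPM in thrombin 24 h libraries, against 609, 579 and 586 CPM in control 24 h libraries. Its fold change was -0.65 ± 0.09 (edgeR adjusted p = 7.64e-06). FADS2 had 1129, 1150.5 and 895 CPM in thrombin 24 h libraries and 1811, 1692 and 1629 CPM in control 24 h libraries, and its fold change was -0.69 ± 0.09 (edgeR adjusted p = 4.62e-06). Both pairs were well separated. At 4 h both genes were higher with thrombin, FADS1 at 584, 549 and 588 CPM against 389.9, 416 and 397 CPM in control (0.52 ± 0.09, edgeR adjusted p = 3.58e-04). FADS2 was at 1742, 1813 and 1827 CPM with thrombin at 4 h, against 1343, 1307 and 1289 CPM in control (0.45 ± 0.09, edgeR adjusted p = 0.00183). These pairs did not overlap either. At 48 h the fold changes were 0.14 ± 0.09 for FADS1 and 0.07 ± 0.09 for FADS2, and neither was called. The third gene of the cluster, FADS3, had 0.13 ± 0.11 at 4 h and 0.06 ± 0.11 at 24 h and was not called. FADS1 (chr11:61799627-61817003) and FADS2 (chr11:61816203-61867354) overlap on opposite strands by 142 exon bases, 1.80% of the FADS1 exons and 2.85% of the FADS2 exons, and without a stated strand setting reads from those bases cannot be told apart.

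**Figure D4:**
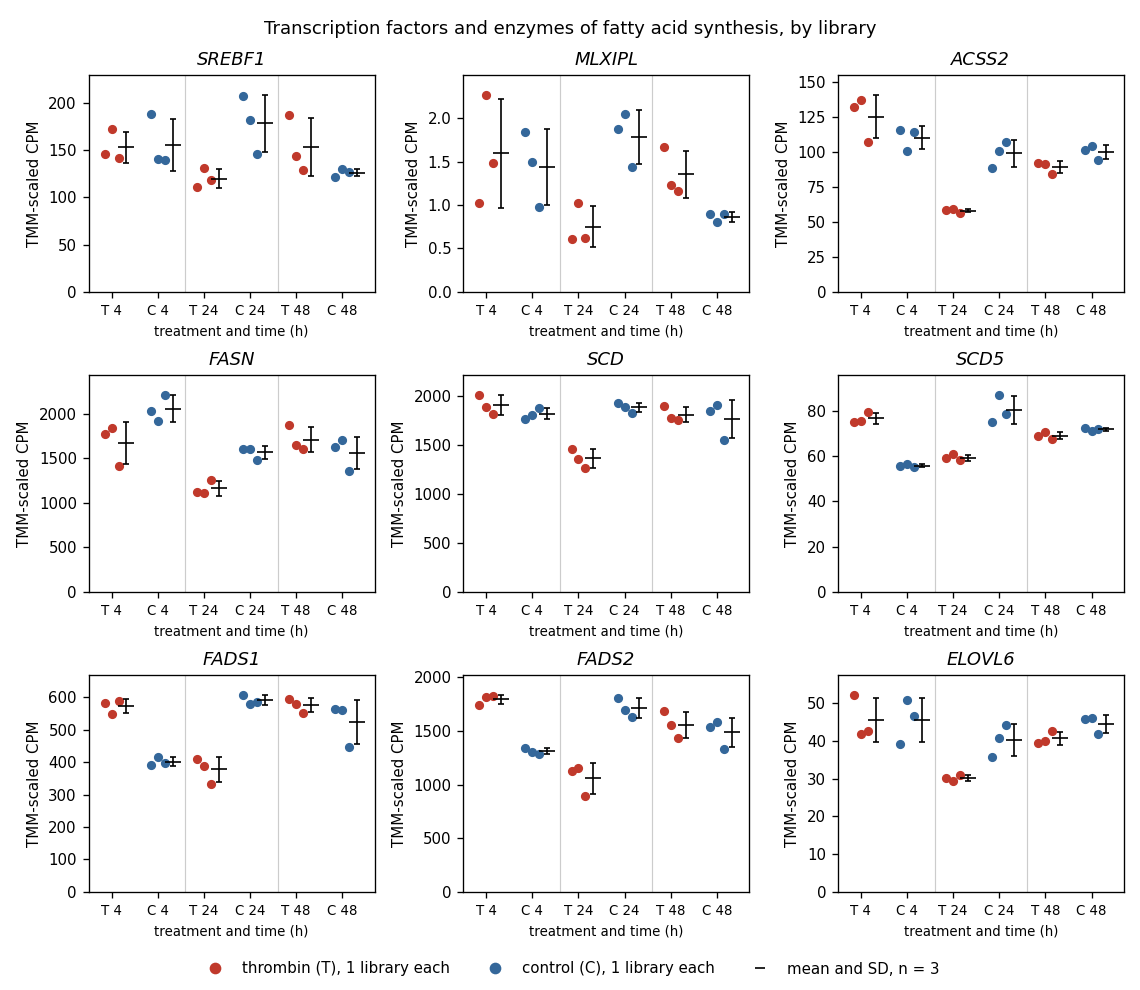
TMM-scaled CPM of 9 transcription factor and fatty acid synthesis genes in each library, thrombin (T) and control (C) at 4, 24 and 48 h, with mean and SD over 3 libraries. ACSS2, FASN, SCD, FADS2 and ELOVL6 have their 3 lowest libraries in thrombin 24 h, while SCD5, FADS1 and FADS2 are also higher with thrombin than in control at 4 h.

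Among the 5 elongases 1 fell at 24 h and 0 were called at 4 h. ELOVL6, which lengthens palmitate to stearate, had 30.1, 29.4 and 30.9 CPM in thrombin 24 h libraries and 35.8, 40.9 and 44.1 CPM in control 24 h libraries. The groups did not overlap, and the fold change was -0.42 ± 0.11 (edgeR adjusted p = 0.00660). ELOVL1, which makes very long saturated chains, stood just outside the threshold at 24 h with -0.25 ± 0.09 (edgeR adjusted p = 0.0536); it passed in 9 of 24 alternatives, one of them without thrombin 24 h library 13 (adjusted p = 0.0220). At 4 h ELOVL1 had 0.22 ± 0.09 and passed without thrombin 4 h library 12 (adjusted p = 0.0120). ELOVL5, an elongase of polyunsaturated chains, had 0.11 ± 0.08 at 24 h. ELOVL4, known for very long polyunsaturated chains, had 0.03 ± 0.12, and ELOVL7 had -0.06 ± 0.13; none of these 3 was called at 4, 24 or 48 h.

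The 4 acyl-CoA synthetase genes, whose products activate long-chain fatty acids, split at 24 h. ACSL4, which prefers arachidonate and related chains, was higher, with 324, 266 and 322 CPM in thrombin 24 h libraries and 207, 229 and 251 CPM in control 24 h libraries (log2 fold change 0.41 ± 0.11, edgeR adjusted p = 0.00798). ACSL3, a synthetase found on forming droplets, was lower, with 289.8, 241 and 255 CPM with thrombin and 291, 318 and 341 CPM in control (-0.27 ± 0.09, edgeR adjusted p = 0.0356). Neither pair overlapped, though the ACSL3 libraries nearly met. The ACSL4 call was lost without control 24 h library 12 (adjusted p = 0.0641). The ACSL3 call was lost without control 24 h library 13 or 14 or thrombin 24 h library 13 or 14, with adjusted p from 0.103 to 0.161. ACSL1 and ACSL5, other long-chain synthetases, had fold changes of 0.18 ± 0.10 and -0.23 ± 0.17 at 24 h and were not called. At 4 h all 4 fold changes were below 0, from -0.25 ± 0.09 for ACSL3 to -0.15 ± 0.11 for ACSL4, and 0 were called; ACSL3 passed without thrombin 4 h library 12 (adjusted p = 0.0146).

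Of the 8 genes of glycerolipid assembly 3 were higher and 2 lower with thrombin at 4 h, and 1 was higher and 3 lower at 24 h. GPAM encodes the mitochondrial acyltransferase that starts glycerolipid synthesis. It went against the desaturases at both times. At 4 h it had 26.2, 22.2 and 19.8 CPM with thrombin and 31.5, 34.3 and 38.8 CPM in control, without overlap (log2 fold change -0.61 ± 0.12, edgeR adjusted p = 0.00127). At 24 h it had 33.1, 25.7 and 33.7 CPM with thrombin and 21.0, 21.2 and 25.3 CPM in control, where the lowest thrombin value was just above the highest control value (0.45 ± 0.12, edgeR adjusted p = 0.00957). The 24 h call was lost without control 24 h library 12 (adjusted p = 0.0564), control 24 h library 13 (adjusted p = 0.0540) or thrombin 24 h library 14 (adjusted p = 0.0693).

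AGPAT2 and AGPAT3 encode acyltransferases that make phosphatidic acid, the next intermediate, and both were higher with thrombin at 4 h. AGPAT3 had 173, 176 and 177 CPM with thrombin and 137, 147 and 154 CPM in control (0.27 ± 0.08, edgeR adjusted p = 0.0228), and AGPAT2 had a fold change of 0.33 ± 0.10 (edgeR adjusted p = 0.0376). At 24 h their fold changes were 0.00 ± 0.08 for AGPAT3 and -0.01 ± 0.10 for AGPAT2, close to 0. The AGPAT3 call at 4 h was lost without control library 12 or 13 or thrombin library 13 or 14 of that time (adjusted p from 0.0617 to 0.0762), and the AGPAT2 call without control library 13 or 14 or thrombin library 13 or 14 (adjusted p from 0.0909 to 0.233).

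The lipins, phosphatidate phosphatases that yield diacylglycerol, did not move as one. LPIN1 had 114, 101 and 111 CPM in thrombin 24 h libraries, against 137, 143 and 158 CPM in control 24 h libraries (-0.43 ± 0.09, edgeR adjusted p = 0.00105). At 4 h it was also lower, with 161, 154 and 142 CPM with thrombin and 174, 189 and 215 CPM in control (-0.34 ± 0.09, edgeR adjusted p = 0.0118), a call lost without control 4 h library 14 (adjusted p = 0.0966) or thrombin 4 h library 14 (adjusted p = 0.0740). LPIN1 was the single gene of the 36 called in the same direction at both times, as 13 of all 961 genes called at both times were. LPIN3 had 29.4, 30.1 and 33.8 CPM with thrombin at 4 h and 21.7, 20.2 and 22.5 CPM in control (0.54 ± 0.13, edgeR adjusted p = 0.00775), and 24.8, 28.6 and 18.3 CPM with thrombin at 24 h and 37.2, 29.7 and 29.7 CPM in control (-0.43 ± 0.13, edgeR adjusted p = 0.0212). The LPIN3 pairs did not overlap, and their order was opposite at the 2 times, as it was for 948 of those 961 genes. The 24 h call was lost without control 24 h library 12 (adjusted p = 0.157) or thrombin 24 h library 14 (adjusted p = 0.174), and the 4 h call without thrombin 4 h library 14 (adjusted p = 0.0536). LPIN2 was not called, with 0.10 ± 0.08 at 4 h and -0.08 ± 0.08 at 24 h. In the reference annotation 14.1% of the LPIN3 exon bases are also exon of EMILIN3 on the opposite strand.

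DGAT1 and DGAT2 encode the enzymes of the last step of triglyceride synthesis. DGAT2 had 25.4, 27.3 and 27.2 CPM in thrombin 24 h libraries and 40.6, 37.6 and 36.5 CPM in control 24 h libraries, with wide separation (-0.52 ± 0.09, edgeR adjusted p = 2.98e-04). At 4 h it had 33.5, 37.1 and 44.1 CPM with thrombin and 30.6, 33.0 and 32.2 CPM in control, not called (0.26 ± 0.09, edgeR adjusted p = 0.0677) though it passed without thrombin 4 h library 12 (adjusted p = 0.0132). DGAT1 was not called at any time; its fold changes were 0.24 ± 0.11 at 4 h, -0.19 ± 0.11 at 24 h and 0.32 ± 0.11 at 48 h, and it passed at 4 h without thrombin 4 h library 12 (adjusted p = 0.0414). It was also the 1 gene of the 36 with an unadjusted p under 0.05 at 48 h. An antisense transcript covers 17.2% of the DGAT2 exon bases in the annotation.

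Of the 6 droplet coat and lipase genes 1 fell at 24 h and 1 fell at 4 h, where 8.54% and 5.52% of all tested genes fell, so neither count is set apart from the background. PLIN2 had 4.64, 4.01 and 4.57 CPM in thrombin 24 h libraries and 8.02, 7.59 and 7.39 CPM in control 24 h libraries. The groups were far apart relative to their spread, and the fold change was -0.80 ± 0.19 (edgeR adjusted p = 0.00340). At 4 h PLIN2 had 5.59, 5.35 and 5.95 CPM with thrombin and 5.03, 4.06 and 3.76 CPM in control; all thrombin values were higher, and the fold change of 0.39 ± 0.18 was not called. At 48 h it had 7.28, 7.11 and 6.44 CPM with thrombin and 6.93, 3.47 and 6.05 CPM in control, where control library 13 was the lowest of the 18. PLIN3 had 0.14 ± 0.08 at 24 h and was not called, and its thrombin libraries (190.1, 214 and 211 CPM) lay just above its control libraries (188, 186 and 184 CPM); 21.5% of its exon bases are shared with an antisense transcript.

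PNPLA2, the gene of adipose triglyceride lipase, did not pass the test at any time, with 126, 157 and 152 CPM with thrombin and 141, 139.6 and 132 CPM in control at 24 h, which overlapped. Its fold changes were 0.01 ± 0.10 at 4 h, 0.08 ± 0.10 at 24 h and 0.04 ± 0.10 at 48 h. PNPLA3, for a droplet-bound lipase of the same family, had 9.04, 7.72 and 9.68 CPM with thrombin and 13.0, 11.6 and 10.8 CPM in control at 4 h, without overlap (-0.42 ± 0.12, edgeR adjusted p = 0.0256). That call was lost without control 4 h library 12 (adjusted p = 0.0935), control 4 h library 13 (adjusted p = 0.0629) or thrombin 4 h library 13 (adjusted p = 0.151). At 24 h PNPLA3 had -0.24 ± 0.13 and was not called. LIPE, for hormone-sensitive lipase, had 10.7, 11.6 and 13.7 CPM with thrombin and 16.9, 14.8 and 15.3 CPM in control at 24 h, which did not overlap but were not called (-0.38 ± 0.15, edgeR adjusted p = 0.0752). At 4 h its fold change was 0.30 ± 0.14, called without thrombin 4 h library 12 (0.45, adjusted p = 0.0296).

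G0S2, an inhibitor of the PNPLA2 lipase, had the widest spread within a group. At 24 h it had 10.8, 26.8 and 32.8 CPM with thrombin and 11.5, 13.7 and 16.0 CPM in control. Thrombin library 12 was the lowest of the 6, and libraries 13 and 14 were the highest 2. The fold change of 0.78 ± 0.32 was not called (edgeR adjusted p = 0.117). Without thrombin 24 h library 12 it was 1.12 (adjusted p = 9.84e-04).

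**Figure D5:**
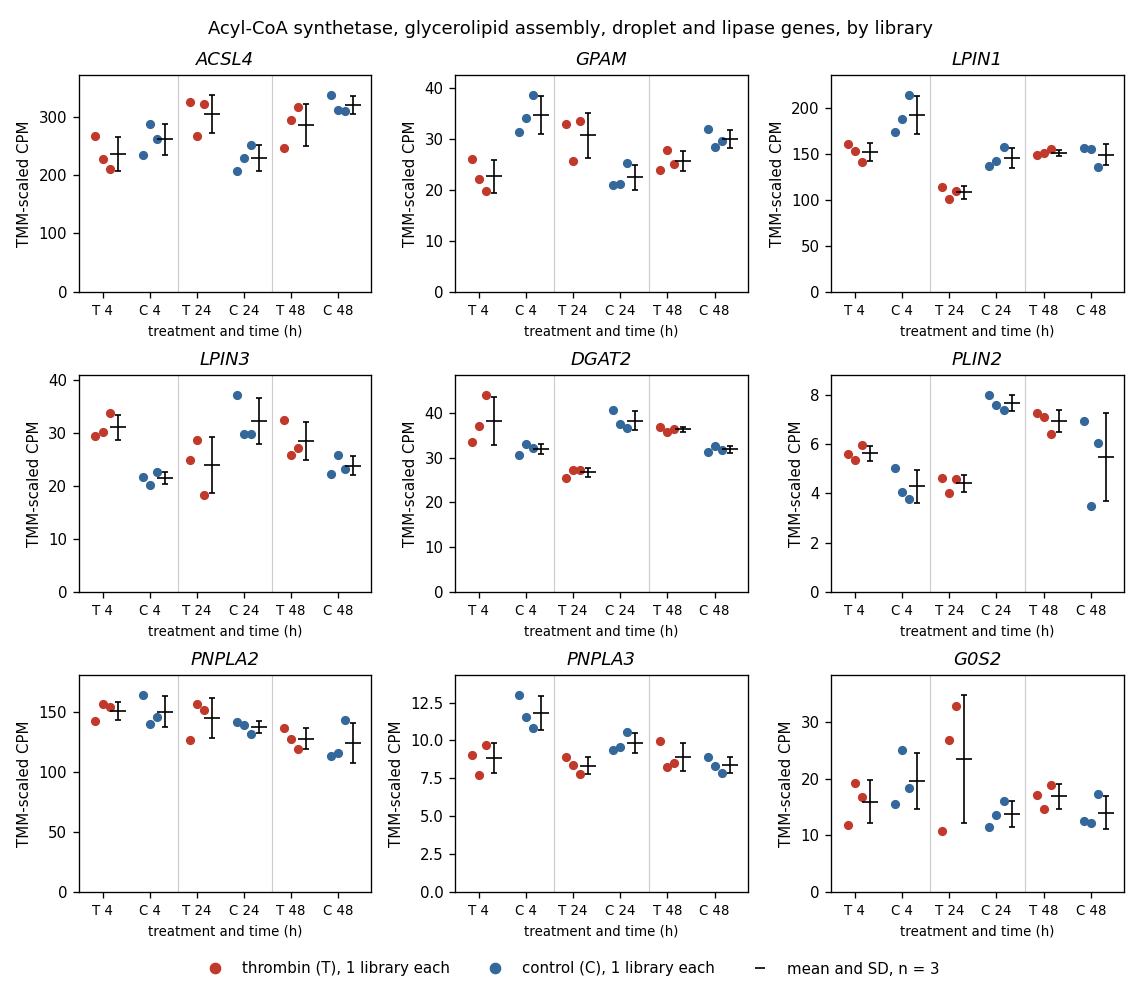
TMM-scaled CPM of 9 genes of fatty acid activation, glycerolipid assembly, the droplet coat and lipolysis in each library, thrombin (T) and control (C) at 4, 24 and 48 h, with mean and SD over 3 libraries. GPAM and ACSL4 are higher with thrombin at 24 h, LPIN1, LPIN3, DGAT2 and PLIN2 are lower, and PNPLA2 overlaps between thrombin and control at each time.

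The 4 h counts depended on which library was left out. The calls of AGPAT2, AGPAT3 and PNPLA3 were lost when control or thrombin 4 h library 13 was left out. Without thrombin 4 h library 14, 3 genes were higher in place of 6, and without thrombin 4 h library 12, 10 were higher and 5 lower. SCD5, FADS1, FADS2 and GPAM kept their 4 h calls in all 24 alternative analyses. At 24 h the calls of SREBF1, ACSS2, FASN, SCD, SCD5, FADS1, FADS2, ELOVL6, LPIN1, DGAT2 and PLIN2 held in all 24. The 2 genes higher at 24 h became 0 without control 24 h library 12 and 1 without control 24 h library 13 or thrombin 24 h library 14.

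The 4 h and 24 h comparisons used different libraries, and 6 of the 36 genes were called in both. The direction was opposite for 5 of them, SCD5, FADS1, FADS2, LPIN3 and GPAM, and the same for LPIN1. This was not particular to the lipid genes: of the 961 genes called in both comparisons over the whole table, 948 had opposite directions and 13 the same. The change of the thrombin effect between times was then tested directly in the same model. The effect at 24 h was lower than that at 4 h for 14 genes and higher for 2, where 14.3% of all tested genes were lower and 13.6% higher. FADS1 (-1.16 ± 0.12, edgeR adjusted p = 1.29e-07), FADS2 (-1.14 ± 0.13, adjusted p = 2.48e-07) and SCD5 (-0.90 ± 0.11, adjusted p = 5.84e-07) had the smallest adjusted p, and GPAM (1.07 ± 0.17, adjusted p = 3.54e-05) and ACSL4 (0.56 ± 0.15, adjusted p = 0.00672) were the 2 with a higher effect at 24 h. PLIN2 also belonged to the 14 (-1.19 ± 0.26, adjusted p = 0.00132), although its 4 h effect was not called on its own.

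At 48 h the effect was higher than that at 24 h for 13 genes and lower for 2, where 7.16% of all tested genes were higher and 6.68% lower. FADS1 (0.78 ± 0.12, edgeR adjusted p = 9.41e-05), FADS2 (0.76 ± 0.13, adjusted p = 2.02e-04) and DGAT2 (0.71 ± 0.13, adjusted p = 6.54e-04) led the 13, and the 2 with a lower effect at 48 h were GPAM (-0.68 ± 0.17) and ACSL4 (-0.57 ± 0.15). The 24 h libraries are in both of these differences, so they are not independent. Between 48 h and 4 h the effect differed for 1 gene, SCD5, which was lower at 48 h (-0.51 ± 0.11, edgeR adjusted p = 0.0182), and for 0 genes in the other direction, where 0.156% and 0.475% of all genes were called. The count of 1 was 0 without control 4 h library 14 or thrombin 48 h library 14, and 2 without control 48 h library 14.

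The levels within 1 treatment show which groups moved. In the thrombin series FADS1 averaged 573 CPM at 4 h, 378 CPM at 24 h and 576 CPM at 48 h, and in the control series 401 CPM, 591 CPM and 523 CPM at the same times. FADS2 averaged 1794 CPM, 1058 CPM and 1558 CPM in the thrombin series and 1313 CPM, 1711 CPM and 1486 CPM in the control series. For both genes the 24 h mean was the lowest of the thrombin series and the highest of the control series. Control 24 h libraries were higher than control 4 h libraries in 6 genes, SCD5, FADS1, FADS2, AGPAT3, LPIN3 and PLIN2, and lower in 3, FASN, GPAM and LPIN1 (8.1% of all genes were higher and 7.15% lower, so the lower share was near the background). PLIN2 rose by 0.84 ± 0.18 between these control groups (edgeR adjusted p = 0.00268) and GPAM changed by -0.63 ± 0.12 (adjusted p = 7.65e-04). Control 48 h libraries were higher than control 24 h libraries in ACSL4 and GPAM and lower in SREBF1, LPIN3 and DGAT1 (2.69% of all genes were higher and 3.43% lower). Both counts were 0 without control 24 h library 12, and the count of lower genes was also 0 without control 24 h library 13, control 48 h library 12 or control 48 h library 13.

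Thrombin 24 h libraries were lower than thrombin 4 h libraries in 13 genes and higher in 2 (7.28% of all genes were lower and 7.85% higher). ACSS2 changed most firmly, by -1.11 ± 0.09 (edgeR adjusted p = 6.57e-09), with 58.5, 59.2 and 56.6 CPM at 24 h against 132, 137 and 107 CPM at 4 h. The 2 higher genes were GPAM (0.44 ± 0.12) and ACSL4 (0.37 ± 0.11), and neither was called without thrombin 4 h library 13, thrombin 4 h library 14 or thrombin 24 h library 14, while 1 was called without thrombin 24 h library 12. Thrombin 48 h libraries were higher than thrombin 24 h libraries in 11 genes, ACSS2, ACACA, FASN, SCD, FADS1, FADS2, ELOVL6, ACSL3, LPIN1, DGAT2 and PLIN2, and lower in 0, where 4.31% of all genes were higher and 5.41% lower. At an unadjusted p under 0.05, 17 of the 36 genes differed in either direction, and DESeq2 called 12 higher and 0 lower. Without thrombin 24 h library 12, edgeR called 1 lower. The shares of 4.31% and 5.41% belong to the main edgeR calls and are no background for these other counts. These comparisons reuse the thrombin 24 h libraries of the comparison with control.

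Genes that neighbour the 36 in lipid metabolism were followed from lists drawn up by pathway, with earlier results of these data known. Their counts stand beside the shares of all tested genes, 9.05% higher and 8.54% lower at 24 h and 6.29% higher and 5.52% lower at 4 h, so that 1 or 2 genes in a list of 8 to 15 are near the background. Of 15 tested genes for the control of SREBP, LXR and ChREBP, 0 rose and 2 fell at 24 h: SREBF2, which encodes SREBP-2, had 534 CPM with thrombin and 693 CPM in control (-0.37 ± 0.08, edgeR adjusted p = 0.00155), and NR1H3, which encodes LXR alpha, had 2.40 CPM and 4.78 CPM (-1.01 ± 0.23, adjusted p = 0.00257). The median of that list was -0.22. At 4 h 5 rose and 1 fell; the one that fell was INSIG1, which encodes a protein that holds SREBPs in the endoplasmic reticulum, with 484 CPM with thrombin and 801 CPM in control (-0.72 ± 0.08, edgeR adjusted p = 2.36e-06). Of the 5 that rose, RXRA, the partner receptor of LXR, had 0.50 ± 0.08 and SCAP, the escort of SREBPs, had 0.27 ± 0.08.

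The cholesterol genes, the other set under SREBP control, had 19 of 23 lower and 0 higher at 24 h, with a median of -0.58. LSS, which makes lanosterol, had -0.63 ± 0.08 (edgeR adjusted p = 4.64e-06). At 4 h 5 of the 23 rose and 6 fell, with DHCR7 at 0.47 ± 0.09 and HMGCS1 at -0.77 ± 0.14. Among 19 tested genes of other fatty acid synthesis steps 3 fell and 0 rose at 24 h, namely ACSS1 (-0.56 ± 0.13), a mitochondrial acetyl-CoA synthetase, ME3 (-0.44 ± 0.11), a mitochondrial malic enzyme, and SLC25A1 (-0.31 ± 0.10), the carrier that exports citrate from mitochondria. Of 14 other glycerolipid enzyme genes 1 fell and 0 rose at 24 h, no more than the background of 8.54% lower: PCYT2, for phosphatidylethanolamine synthesis, was at -0.49 ± 0.09 (edgeR adjusted p = 3.73e-04), whereas at 4 h it was one of 2 that rose (0.29 ± 0.09).

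Of 26 tested genes of fatty acid oxidation 3 rose and 5 fell at 24 h, where the 3 were near the 9.05% of all genes that rose. CPT1A, which admits long-chain acyl groups to mitochondria, had 50.9 CPM with thrombin and 75.3 CPM in control at 24 h (-0.57 ± 0.10, edgeR adjusted p = 1.26e-04), and 64.7 CPM and 43.5 CPM at 4 h (0.57 ± 0.10, adjusted p = 3.02e-04), where 1 gene of the list rose and 1 fell, below the 6.29% and 5.52% of all genes. ECI2, an isomerase for unsaturated chains, moved the other way, with 0.53 ± 0.12 at 24 h and -0.44 ± 0.12 at 4 h. Of 8 uptake and binding genes 1 fell and 0 rose at 24 h, SLC27A1 (-0.36 ± 0.09), a fatty acid transporter gene. Among 15 other droplet and lipase genes SOAT2, which esterifies cholesterol, rose (1.34 ± 0.45), with 1.17 CPM with thrombin and 0.450 CPM in control, and HSD17B11, a droplet-bound dehydrogenase, fell (-0.38 ± 0.12). At 48 h 0 genes were called in each of these lists.

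The 24 h difference in lipid genes came beside higher levels of contractile stellate markers. TAGLN had 144 CPM in thrombin 24 h libraries and 25.1 CPM in control 24 h libraries, and ACTA2 had 17.6 CPM and 10.8 CPM. Of 11 tested stellate markers 5 rose and 1 fell, where 9.05% of all tested genes rose and 8.54% fell. COL6A1 went against TAGLN between times. Its effect at 48 h minus that at 24 h was 0.80 ± 0.16, and that of TAGLN was -2.80 ± 0.17. The sum of the 15 stellate markers lay between 6911 and 7865 CPM with thrombin at 24 h and between 6448 and 6988 CPM in control. At 4 h 0 of the 11 rose and 2 fell, TAGLN (-1.01 ± 0.12) and COL1A1 (-0.33 ± 0.10), where 6.29% of all tested genes rose and 5.52% fell. In the same libraries SCD5, FADS1 and FADS2 were higher, and GPAM and LPIN1 were lower. Opposite directions at 4 h and 24 h were general, as 948 of the 961 genes called at both times had them. A link between these markers and the lipid genes was not tested.

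Of the markers of other cell types, 0 of 2 tested hepatocyte and 0 of 2 tested adipocyte genes were called at 24 h. Their sums at 24 h lay between 5.53 and 7.48 CPM with thrombin and between 5.48 and 6.79 CPM in control for hepatocytes, and between 1.75 and 3.26 CPM with thrombin and between 2.51 and 3.21 CPM in control for adipocytes. Endothelial markers had 2 higher and 1 lower of 5 tested, with sums between 15.5 and 19.4 CPM with thrombin and between 15.8 and 24.0 CPM in control. Macrophage markers had 0 called of 4, with sums of 82.7 to 99.3 CPM with thrombin and 79.2 to 88.5 CPM in control, most of it CD68. Cholangiocyte markers had 1 higher of 3, with sums of 134 to 227 CPM with thrombin and 157 to 180.2 CPM in control, most of it SOX9. The part of any of these in the lipid gene results was not tested, and in bulk RNA fewer cells of a type and less RNA per cell cannot be told apart.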

How the data were processed

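The study deposited 1 table of raw counts per gene symbol for 18 libraries, 3 in each of 6 groups taken from the labels; 0 columns were left unmatched. These counts are the authors' own, whole numbers without normalization. The submitters' processing notes name DESeq2, SAMtools 1.21, Bowtie2 2.5.4 and cutadapt 4.9 and the build GRCh38 (hg38). What each tool did, how genes were counted, and which annotation and strand setting applied are not given in the sources used here. If reads were aligned without splicing, those across exon junctions would be missing, to a degree that may differ between genes. Levels per kilobase compared between genes could then be affected, and reads shared by related or overlapping genes would be uncertain.

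The analysis used edgeR 4.0.16 (R 4.3.3). The filter on low counts was filterByExpr with the 6 groups, a minimum count of 10 and a minimum total of 15, which left 15353 genes. Libraries were scaled by TMM (factors 0.945 to 1.031), and a robust quasi-likelihood model with 6 group means was fitted to all 18 libraries (12 residual degrees of freedom; 9.07% as the biological coefficient of variation). The 10 contrasts were tested two-sided, and p was adjusted by Benjamini-Hochberg across the 15353 genes; an adjusted p under 0.05 was called. The standard error of a log2 fold change is its size divided by the square root of F. CPM values use TMM-scaled library sizes, and levels per kilobase divide by the GENCODE v29 exon union. The procedure was tested on simulated counts. The 36 genes and the pathway and marker lists were chosen with earlier results of these data known. All 36 are named, with every library's value for those with the smallest adjusted p and for the regulators, droplet coats and lipases; at most 3 called genes per pathway list and comparison are named. Alternatives were median-ratio scaling, DESeq2 1.42.0, no low-count filter, a block on the library number, fits of 1 time alone, leaving out each library or all libraries numbered 12, and plain library sizes. Promoter windows and coordinates are from RefSeq (GRCh38.p14). The labels do not say what the library numbers mark, so the numbers were not used as pairs. Same-numbered thrombin and control libraries also did not deviate together. Counts give precision within counting error only, and n = 3 limits it further.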

Additional observations from a re-analysis of the deposited data

Results flagged for a closer look

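The effect of thrombin differed between times for the genes below, by edgeR's quasi-likelihood test of the difference at an adjusted p under 0.05. Values are the difference of 2 log2 fold changes, each of thrombin over control. For 24 h minus 4 h, 14.3% of all tested genes were lower and 13.6% higher. For 48 h minus 24 h, 7.16% were higher and 6.68% lower, and for 48 h minus 4 h, 0.475% and 0.156%. Opposite directions at 4 h and 24 h were general, in 948 of the 961 genes called at both times. For the effect at 24 h minus that at 4 h, 14 genes were below 0: FADS1 at -1.16, FADS2 at -1.14, SCD5 at -0.90, ACSS2 at -0.95, DGAT2 at -0.78, LPIN3 at -0.97 and SCD at -0.54, followed by PLIN2 at -1.19, ELOVL1 at -0.46, LIPE at -0.68, MLXIPL at -1.38, ELOVL6 at -0.42, SREBF1 at -0.55 and DGAT1 at -0.43. The 2 genes above 0 were GPAM at 1.07 and ACSL4 at 0.56.

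For the effect at 48 h minus that at 24 h, 13 genes were above 0: FADS1 at 0.78, FADS2 at 0.76, DGAT2 at 0.71, ACSS2 at 0.61, PLIN2 at 1.14, SCD at 0.50 and SREBF1 at 0.85, followed by FASN at 0.56, MLXIPL at 1.90, LPIN3 at 0.69, LPIN1 at 0.45, SCD5 at 0.38 and DGAT1 at 0.51. The 2 genes below 0 were GPAM at -0.68 and ACSL4 at -0.57. For the effect at 48 h minus that at 4 h, the 1 gene was SCD5 at -0.51. Groups of 3 libraries are too small for a test of single libraries that stand apart.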

How the results depend on the processing

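Over all the alternatives run, 0 called fold changes of the 36 genes changed direction in the comparisons of thrombin with control at 4, 24 and 48 h. For the other contrasts only the counts of called genes were compared. Without the low-count filter 5 genes were lower at 4 h in place of 3, the effect at 48 h minus at 4 h was higher for 1 gene and lower for 2 in place of 0 and 1, and 1 gene was lower in thrombin 48 h against thrombin 24 h in place of 0; G0S2 was called at 24 h (adjusted p = 1.14e-07). When libraries were left out, singly or all those numbered 12 together, the count of genes higher at 4 h ranged from 3 to 10 and lower at 4 h from 2 to 6. Higher at 24 h ranged from 0 to 3. For the effect at 48 h minus at 24 h the lower count ranged from 0 to 2. For the effect at 48 h minus at 4 h, higher ranged from 0 to 3 and lower from 0 to 4. For control 48 h against control 24 h, higher ranged from 0 to 3 and lower from 0 to 4. For thrombin 24 h against thrombin 4 h, higher ranged from 0 to 3, and for thrombin 48 h against thrombin 24 h, lower ranged from 0 to 2. The cause of these shifts was not tested.

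The count of genes lower at 24 h was 15 with median-ratio scaling, 16 with DESeq2, 17 without the filter, 17 in the fit of the 24 h libraries alone and 12 without all libraries numbered 12, against 14. The fit of the 4 h libraries alone gave 4 higher and 2 lower. With the number 12, 13 or 14 as a replicate block, 6 genes were higher and 4 lower at 4 h, 3 were higher and 16 lower at 24 h, and 0 were called at 48 h. The counts in this section stand without the share of all genes called in the same alternative. They describe how the calls depend on the processing and not an excess over the background. Correlations of the deviations of same-numbered thrombin and control libraries lay between -0.093 and 0.057, which gives no sign of pairing. With plain library sizes 203 of 216 group means moved by less than their SD. Depth limits MLXIPL most, with 9 counts in its lowest library.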
